A study of Populus tremula x Populus alba with 10 samples.

Results

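The genes described here are the 100 genes of hybrid poplar, of 31823 in the files, whose RNA was found most strongly in the same stem nuclei as the gene PtXaAlbH.03G005800, called the anchor below. A nucleus counted as anchor-positive when it held at least 1 UMI (unique molecular identifier, which marks 1 captured RNA molecule) of the anchor, and only barcodes with 200 or more genes were used. For every gene the level (CPM, counts scaled to the library total) in anchor-positive nuclei was divided by that in all other nuclei, with 50 CPM added to both, and the log2 of this ratio was taken for each treatment on its own. A gene's ratio is the lower of its drought and control values. Candidates needed 30 UMIs in anchor-positive nuclei, which 2410 genes beside the anchor had, and a ratio above their own ratios for 6 other anchor genes. This left 553 candidates, and the 100 with the highest ratio are the members. The anchor was left out of the ranking because its own ratio follows from how the nuclei were picked.

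The material was stem of wild type Populus tremula x alba, INRA clone 717 1B4, propagated in vitro, so that all plants carry 1 genotype. Treatment began 6 weeks after potting in peat. Severe drought plants were left unwatered until the soil held 15% of field capacity, the water that soil retains after draining, and were kept there by daily weighing for 14 days, with the wilting threshold at a soil moisture of 0.1 by volume (cubic metres per cubic metre). Control plants stayed near field capacity, at a soil moisture of 0.46 by volume. Nuclei were sorted from internode tissue (internode 15 in the extraction protocol, internodes 14 and 15 in the design text), 80000 per library from 1 plant, and loaded on a Singleron chip for 10000 nuclei, giving 2 drought and 2 control libraries. Bulk RNA of the stem gave 3 drought and 3 control libraries, made with a stranded mRNA kit and described by the submitters as biological replicates.

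A woody stem holds phloem, cambium, xylem, pith and cortex, and each kind of cell in it uses its own set of genes. Genes whose RNA turns up in the same nuclei are commonly read as parts of a shared cell type or cell state. Nuclear RNA is rich in transcripts that were made recently or are still being processed, whereas bulk RNA is mostly mature message from the cytoplasm. Neither names nor functions stand beside the IDs in the files, so the anchor and its members are given by ID and no cell type is assigned to the nuclei that hold them.

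Bulk libraries held 47900128 to 53320324 counts under drought and 48103219 to 57594846 in controls, and nuclei libraries 1930997 and 1994615 UMIs under drought and 4346198 and 3633900 in controls. Bulk drought 2 stood apart from the other bulk drought libraries, with a Spearman correlation over genes of 0.961 and 0.959 to them, against 0.995 between those other two and 0.992 to 0.994 among controls. The 200-gene minimum kept 75.5% and 61.6% of barcodes in the drought nuclei libraries and 97.8% and 100.0% in the control ones. Libraries of nuclei shared 18 to 56 barcode sequences pairwise, none of them anchor-positive in both libraries of a pair. No doublet caller was run.

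The anchor was a rarely captured RNA. It was found in 369 of 16950 nuclei (2.18%), 117 of them from drought and 252 from control plants, and only 94 of these nuclei held 2 or more of its UMIs. The share of nuclei with an anchor UMI was 2.11% and 1.34% in the drought libraries (95% exact binomial intervals 1.64 to 2.67 and 0.994 to 1.76) and 3.16% and 2.02% in the control libraries (intervals 2.66 to 3.72 and 1.67 to 2.42). Drought 1 lay above control 2, so the treatments overlapped. The mean share was 1.72% ± 0.55 under drought and 2.59% ± 0.80 in controls (SD, n = 2 each), with p = 0.67 by a two-sided exact permutation test over the libraries. With 2 libraries per treatment that test cannot go below 0.33.

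Depth moved with the share. The median UMI count of the kept nuclei was 430 and 354 in the drought libraries, against 743 and 513 in the control libraries. When each nucleus was thinned to 250 UMIs, the share became 1.35% and 0.736% under drought and 1.29% and 1.13% in controls, and the difference of drought minus control shrank to -0.17 percentage points, against -0.86 at full depth (exact two-sided permutation test over 2 libraries each, p = 1). Thinning left out 217 and 479 drought nuclei and 16 and 122 control nuclei. Within a library the anchor-positive nuclei were not deeper than the rest as a rule: their median UMI counts were 467 and 341 under drought, against 428 and 355 in the other nuclei, and 701 and 556 in controls, against 744 and 513. Intervals and shares here cover counting error alone.

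The ratio that chose the members ran between 2.56 and 0.59 on the log2 scale, with a median of 0.95. These ratios are the selection itself and carry no test. For 44 members it was at least 1, a doubling of the level with 50 CPM added, and for 4 at least 2. The ratio was the higher one in controls for 63 members and in drought for 37, with medians of 1.01 in drought and 1.25 in controls. Most rest on few molecules: the UMIs of a member in anchor-positive nuclei ran from 30 to 598 with a median of 52.5, and 42 members had 10 or fewer in the drought nuclei. The drought median was 12 UMIs per member and the control median 39.5.

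**Figure D1:**
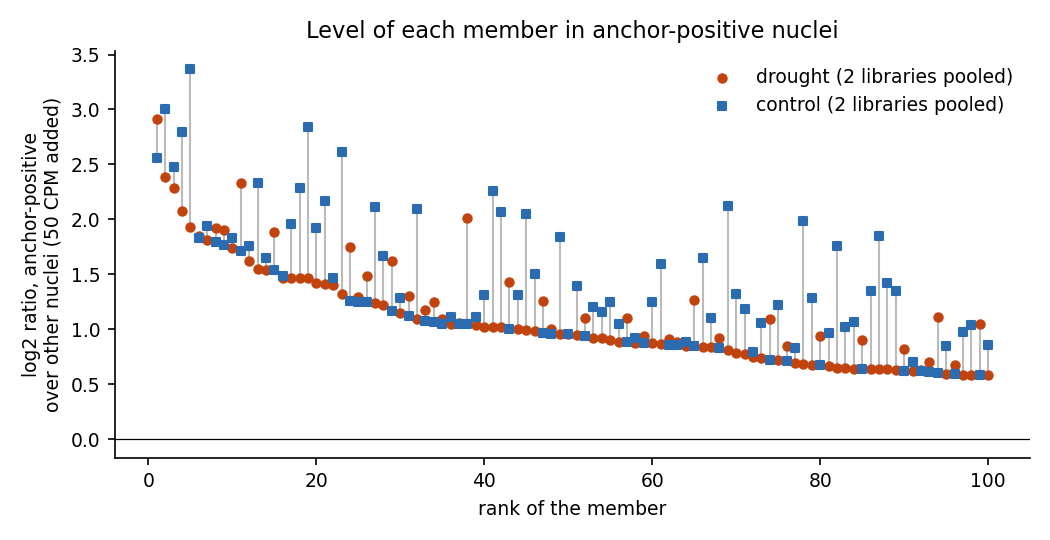
Each position on the x axis is 1 of the 100 members, by rank, and the y axis is the log2 ratio of its CPM in anchor-positive over other nuclei with 50 CPM added, for the pooled drought libraries (circles) and the pooled control libraries (squares). The lower mark of each pair is the value that ranked the member, so the lower edge descends by construction, while the upper marks scatter as high as 3.37.

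The members just inside the limit were PtXaAlbH.14G019000 at 0.587 and PtXaAlbH.01G058800 at 0.585, and the candidates just outside it were PtXaAlbH.05G019500 at 0.583 and PtXaAlbH.12G049900 at 0.582. Nothing separates the last members from the first genes left out. Taken library by library, 85 members had a ratio above 0 in all 4 libraries, 14 in 3 and 1 in 2.

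PtXaAlbH.03G006400 ranked first, at 2.56. Its level in anchor-positive nuclei was 271 and 585 CPM under drought, against 4.2 and 6.3 CPM in the other nuclei of the same libraries, and 268 and 272 CPM in controls, against 5.7 and 2.8 CPM. Its level beside the anchor was thus many times that in the rest in both treatments, on 87 UMIs in all. PtXaAlbH.03G006100 was second at 2.39, with 208 and 439 CPM under drought against 16.0 and 8.8 CPM in the other nuclei, and 633 and 478 CPM in controls against 25.2 and 26.9 CPM. PtXaAlbH.03G006300 ranked next at 2.29, with 187 and 390 CPM under drought against 9.5 and 12.6 CPM, and 284 and 244 CPM in controls against 6.7 and 6.2 CPM. For these 3 genes the level in anchor-positive nuclei stood far above that in the rest in each of the 4 libraries.

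PtXaAlbH.10G081700 came after these, at 2.08, with 375 and 976 CPM in the anchor-positive nuclei under drought and 981 and 507 CPM in controls, and 57.3 to 112 CPM in the other nuclei. PtXaAlbH.05G045400 had a ratio of 1.93 and the most molecules of any member, 598 UMIs. Its level was 729 and 1073 CPM under drought and 3228 and 1341 CPM in controls, against 124 to 235 CPM in the other nuclei. Control 1 gave 398 of those UMIs, and an UMI of the gene was seen in 22 of 117 anchor-positive drought nuclei and 133 of 252 control ones. The next 5 members were PtXaAlbH.17G006200 (ratio 1.83, 53 UMIs), PtXaAlbH.05G038600 (1.81, 76 UMIs), PtXaAlbH.09G089700 (1.79, 158 UMIs), PtXaAlbH.17G016500 (1.77, 116 UMIs) and PtXaAlbH.10G097200 (1.74, 65 UMIs). PtXaAlbH.10G097200 was uneven, with a ratio of 0.82 and 2.80 in the drought libraries and 2.33 and 1.00 in the control libraries.

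The rule uses levels alone, yet the 3 leading members carry IDs close to that of the anchor. In the sorted list of gene IDs, PtXaAlbH.03G006100, PtXaAlbH.03G006300 and PtXaAlbH.03G006400 lie 3, 5 and 6 steps after PtXaAlbH.03G005800, and PtXaAlbH.03G005300, the eleventh member with a ratio of 1.71, lies 5 steps before it. The genes between them were mostly not captured: 7 of the IDs within 7 steps of the anchor had 0 UMIs in anchor-positive nuclei. PtXaAlbH.03G005000, 8 steps before, had a ratio of 0.96 but 18 UMIs, under the minimum of 30. PtXaAlbH.03G006600, 8 steps after, had 31 UMIs and a ratio of -0.68. How IDs map to the genome was not looked up, and how reads of near-identical copies were assigned is not given, so levels of neighbouring IDs may share reads, which was not tested.

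**Figure D2:**
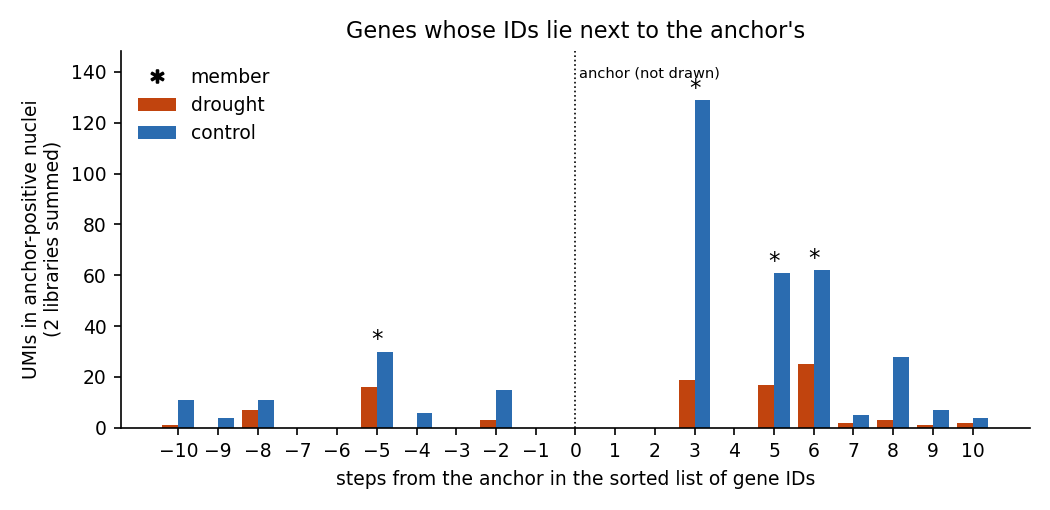
The x axis gives steps from the anchor in the sorted list of gene IDs and the y axis the UMIs in anchor-positive nuclei, summed over the 2 drought libraries (left bars) and the 2 control libraries (right bars), with members marked by a star. The 4 members stand among IDs with few or no UMIs, and PtXaAlbH.03G006100, at 3 steps, is the highest.

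Choosing the genes again without a library, and then reading the left-out library, gave a measure that the choice had not used. Of the 100 genes chosen without a library, 77 and 77 had a ratio above 0 in the left-out drought libraries 1 and 2, and 81 and 90 in the left-out control libraries 1 and 2. Over all genes that could have been chosen, the share above 0 was 47.4% and 43.9% in the drought libraries and 49.6% and 48.2% in the control ones. The median ratio of the chosen genes was 0.65 and 0.76 in the left-out drought libraries and 0.73 and 0.82 in the left-out control libraries. The median over all genes that could have been chosen was -0.03 and -0.13 in the drought libraries and -0.00 and -0.02 in the control ones. Chosen genes therefore stood above that whole set, which includes them, in each library that had played no part in choosing them. The identity of the genes held less well: 70, 76, 49 and 71 of them were among the 100 members, without drought 1, drought 2, control 1 and control 2, and 33 members were chosen in all 4 rounds. The fewest were kept without control 1, the library with the most anchor-positive nuclei (137), and whether these are linked was not tested. Raising the minimum to 60 UMIs kept 42 members, and asking for 2 anchor UMIs per nucleus kept 22 of the 60 genes then chosen.

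Each member was also compared with the 6 other anchor genes. Over all libraries PtXaAlbH.07G032900 was seen in 40 of the 369 anchor-positive nuclei (10.8%), against 4.03% of the other nuclei, but this came from the controls. It was seen in 2 of 67 and 1 of 50 anchor-positive drought nuclei and in 16 of 137 and 21 of 115 control ones. Its own log2 ratio was -0.52 in drought and 0.79 in controls. PtXaAlbH.06G122800 went the other way, with 6 and 4 shared nuclei in drought and 0 and 1 in controls, and ratios of 0.51 and -0.84. The ratios of PtXaAlbH.10G108800 were similar, 0.51 in drought and -1.04 in controls. Its UMIs in anchor-positive drought nuclei were 14 in drought 1 and 0 in drought 2. Pooled over libraries, the anchors other than PtXaAlbH.07G032900 were seen in 1.36% to 7.05% of the anchor-positive nuclei and in 1.65% to 6.80% of the rest. PtXaAlbH.07G032900 was also the next-best anchor of 53 members. The median ratio of the members was 0.06 for it and -0.18 to -0.37 for the others, and no gene belongs to 2 of these lists, which the rule itself ensures.

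Members were found together in nuclei without any anchor UMI too. In nuclei that lacked the anchor but held 1 of the 10 leading members, the summed level of the other 9 was 2.17 to 14.4 times that in the anchor-free nuclei without it, over the 10 genes and 4 libraries. For all 99 other members the range was 1.50 to 4.27 times, and for the 96 members that are not neighbours of the anchor by ID it was 1.50 to 3.98 times. These nuclei were part of the rest against which members had been ranked, so the values are a description and were not tested.

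Nuclei rich in members were counted after thinning each nucleus to 250 UMIs, which left 16116. Thinning applied to the member UMIs, whereas the anchor was scored at full depth. An anchor-positive nucleus held a median of 5 and 7 member UMIs in the drought libraries and 8 and 7 in the control libraries, against 1 in the other nuclei of each library. Nuclei with 8 or more member UMIs, a limit set after the distribution had been seen, made up 3.72% and 2.76% under drought and 4.46% and 3.93% in controls. Of these 612 member-rich nuclei 450 held no anchor UMI, and 370 nuclei lay at the limit or 1 UMI below it. Conversely, 36 of the 351 anchor-positive nuclei held 0 or 1 member UMI. Member-rich nuclei were not the deep ones: their median was 397 and 340.5 UMIs under drought, against 451 and 381 in the other nuclei, and 547 and 474 in controls, against 751 and 525.5.

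The anchor, scored at full depth, was seen more often as members accumulated in the thinned counts. In nuclei with 0 or 1 member UMI its share was 0.473% and 0.376% in the drought libraries and 0.344% and 0.364% in the control libraries. At 2 or 3 member UMIs it was 1.65% and 0.310% under drought and 1.75% and 1.16% in controls, so in drought 2 these classes were alike. Free RNA can give such low shares, and its part was not tested. At 4 or 5 member UMIs the share was 7.77% and 1.61% under drought and 6.56% and 1.99% in controls. At 10 or more it was 25.8% and 29.4% under drought (95% exact intervals 15.8 to 38.0 and 17.5 to 43.8) and 41.2% and 30.0% in controls (32.2 to 50.6 and 21.2 to 40.0). The share was highest in this last class in all 4 libraries, although the drought libraries did not climb at every step, and there the intervals of drought and control libraries overlapped. Drought nuclei were shallower, so the anchor shares of drought and control libraries are not at equal depth. The members were chosen for this relation, so no test is given.

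**Figure D3:**
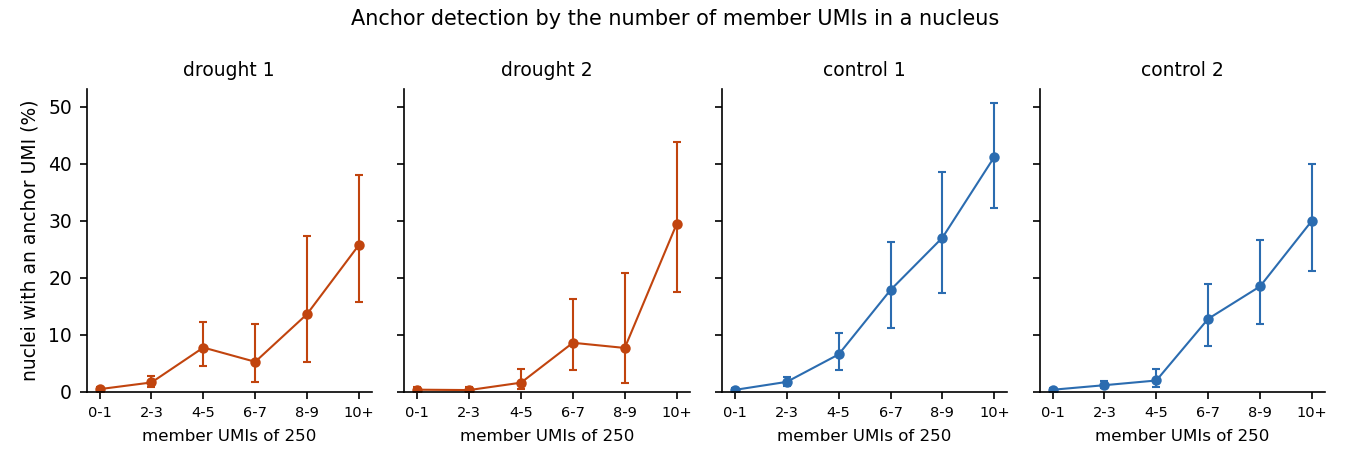
Each panel is 1 library, drought left and control right, and the x axis gives the member UMIs among 250 thinned UMIs of a nucleus. The y axis is the percentage of nuclei with an anchor UMI at full depth, with 95% exact binomial intervals as bars. The percentage is under 0.5 at 0 or 1 member UMI in every library and between 25.8 and 41.2 at 10 or more.

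In bulk stem RNA, which played no part in choosing the members, drought moved many of them and in both directions. Of the 100, all of which passed the low-count filter, 38 were higher and 22 lower under drought at a false discovery rate (FDR) of 0.05 by edgeR's quasi-likelihood test with Benjamini-Hochberg adjustment over all 26448 genes tested. Across all genes tested 27.1% were called higher and 27.1% lower (54.2% in all), so the members' share of higher calls was above the background and that of lower calls below it, and whether they differ from it was not tested. At least 2-fold changes were called higher for 18 members and lower for 8, against 12.3% and 12% of all genes. The median log2 fold change of drought over control was 0.12 for the members, with quartiles of -0.52 and 0.83, and 0.01 for all genes tested, with quartiles of -0.54 and 0.53. In 36 members all 3 drought libraries lay above all 3 control libraries (25.9% of all genes tested) and in 30 all lay below (38.9%).

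Scaling and the library that stood apart changed these counts. With library size as the only scaling, 34 members were called higher and 29 lower (21.9% and 32.4% of all genes tested), and their median became -0.00 while that of all genes moved to -0.12. Relative to all genes the members thus kept their distance, but the share of higher among called members went to 54.0%, against 63.3% with TMM scaling, and that of all called genes to 40.4%, against 50.1%. Without bulk drought 2, 44 members were called higher and 37 lower, against 32.8% and 33.6% of all genes then tested, so the members' share of lower calls was no longer below the background. In bulk RNA, fewer cells of a type and less RNA per cell cannot be told apart.

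The anchor itself fell in bulk. It had 2.30, 1.82 and 2.90 CPM under drought and 4.10, 4.31 and 3.79 CPM in controls, so that every drought library lay below every control library. The log2 fold change was -0.67 (SE 0.22, edgeR adjusted p = 0.0356). This call was near the limit: the adjusted p was 0.0976 without drought 1, 0.0879 without control 1, 0.101 without control 2 and 0.0792 without control 3, and 0.0354 and still past the limit without drought 2.

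Of its neighbours by ID, PtXaAlbH.03G006100 fell as well. It had 1.11, 0.881 and 1.21 CPM under drought and 2.04, 2.21 and 2.40 CPM in controls, with no overlap, a log2 fold change of -0.93 (SE 0.22, edgeR adjusted p = 0.0125) and an adjusted p of 0.0546 without control 3. PtXaAlbH.03G006400 had 0.167, 0.131 and 0.308 CPM under drought and 0.333, 0.305 and 0.399 CPM in controls, and PtXaAlbH.03G006300 had 0.313, 0.469 and 0.493 CPM under drought and 0.478, 0.914 and 0.660 CPM in controls. The treatments overlapped for both, and neither passed the test (edgeR adjusted p = 0.258 and 0.244). PtXaAlbH.03G005300, at 0.206 to 0.394 CPM under drought and 0.347 to 0.528 CPM in controls, did not pass either (adjusted p = 0.553). Only 4 of the 100 members had a mean under 1 CPM in bulk, and these 3 neighbours of the anchor are among them.

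Among the other leading members the directions differed. PtXaAlbH.05G045400, the member with the most molecules in anchor-positive nuclei, had 50.5, 48.2 and 52.4 CPM under drought and 40.1, 41.7 and 37.4 CPM in controls. It was higher under drought in every library, by 0.47 on the log2 scale (SE 0.09, edgeR adjusted p = 0.00424). PtXaAlbH.10G097200 had 14.6, 7.43 and 14.4 CPM under drought and 6.90, 5.85 and 5.57 CPM in controls, which is 1.12 on the log2 scale (SE 0.28, adjusted p = 0.0132). Its drought libraries all lay above the controls, but drought 2 only just, and the call was lost without control 2 or control 3 (adjusted p = 0.0534 and 0.0562).

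PtXaAlbH.09G089700 went the other way, with 16.3, 28.3 and 15.9 CPM under drought and 43.2, 39.8 and 38.6 CPM in controls. All drought libraries were below the controls, drought 2 the least so, and the log2 fold change was -0.88 (SE 0.22, edgeR adjusted p = 0.0143, but 0.0505 without drought 1). The other 4 of the 10 leading members did not pass the test. PtXaAlbH.17G006200 was the least even of them, at 10.4, 1.59 and 8.78 CPM under drought and 1.71, 2.62 and 2.74 CPM in controls (adjusted p = 0.0599). Its drought 1 and 3 lay above and its drought 2 below all controls. PtXaAlbH.10G081700 (2.57 to 6.06 CPM under drought, 5.78 to 7.47 CPM in controls), PtXaAlbH.05G038600 (24.2 to 27.1 and 21.6 to 27.8 CPM) and PtXaAlbH.17G016500 (0.987 to 1.29 and 0.650 to 1.50 CPM) overlapped between treatments.

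**Figure D4:**
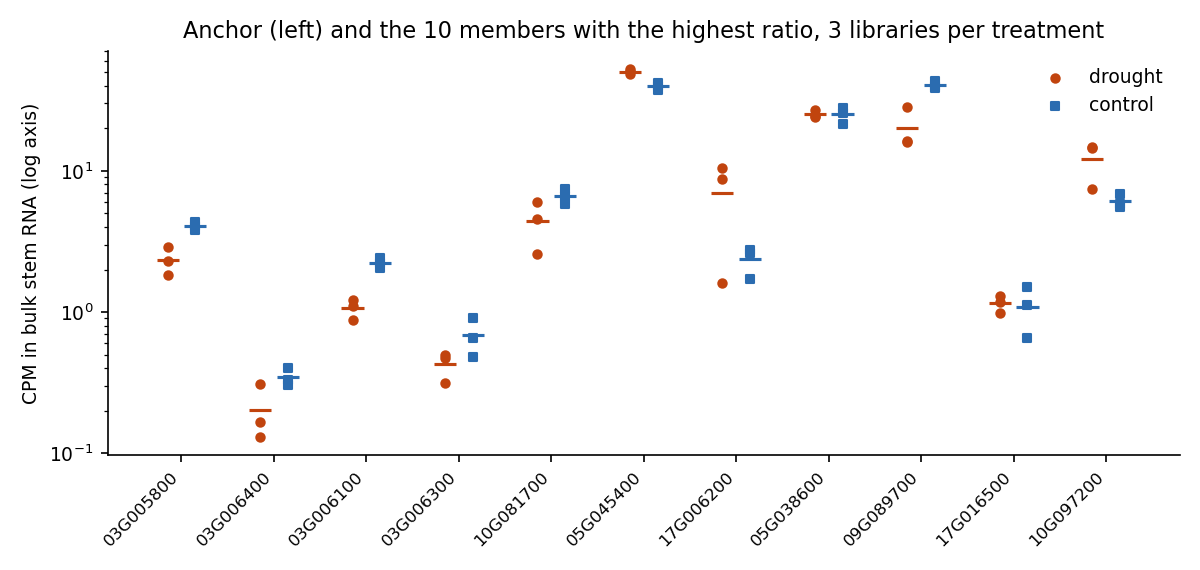
The y axis, logarithmic, gives CPM in bulk stem RNA for the anchor and the 10 leading members (IDs without their shared prefix) in 3 drought libraries (circles) and 3 control libraries (squares), with horizontal lines at the means. Drought lies wholly below control for the anchor, PtXaAlbH.03G006100 and PtXaAlbH.09G089700, and wholly above it for PtXaAlbH.05G045400 and PtXaAlbH.10G097200.

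The members that rose most in bulk were PtXaAlbH.14G019000 and PtXaAlbH.01G070900. PtXaAlbH.14G019000 had 198, 110 and 208 CPM under drought and 25.6, 27.6 and 25.1 CPM in controls, a log2 fold change of 2.85 (SE 0.25, edgeR adjusted p = 0.00041). PtXaAlbH.01G070900 had 136, 94.6 and 127 CPM under drought and 20.8, 22.1 and 17.99 CPM in controls, which is 2.68 on the log2 scale (SE 0.17, adjusted p = 0.00016). In both genes drought 2 was the lowest drought library and still far above every control.

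The members that fell most were PtXaAlbH.13G124800 and PtXaAlbH.15G069600. PtXaAlbH.13G124800 had 11.7, 13.1 and 12.7 CPM under drought and 51.6, 66.9 and 62.5 CPM in controls, a log2 fold change of -2.15 (SE 0.12, edgeR adjusted p = 0.00014). PtXaAlbH.15G069600 had 56.1, 133 and 51.7 CPM under drought and 344, 415 and 309 CPM in controls, which is -2.03 on the log2 scale (SE 0.37, adjusted p = 0.00431). Neither overlapped, and for PtXaAlbH.15G069600 drought 2 was the drought library nearest to the controls.

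The most abundant members in bulk also split. PtXaAlbH.13G121100 had 503, 546 and 491 CPM under drought and 399, 387 and 401 CPM in controls (log2 fold change 0.50, SE 0.09, edgeR adjusted p = 0.00385). PtXaAlbH.06G107500 had 231, 420 and 225 CPM under drought and 637, 589 and 597 CPM in controls (-0.93, SE 0.24, adjusted p = 0.0159, but 0.0552 without drought 1). The first lay above and the second below the controls in every library. PtXaAlbH.05G063000 was higher under drought, at 187 to 210 CPM against 122 to 146 CPM in controls (0.67, SE 0.10, adjusted p = 0.00201), and PtXaAlbH.01G016800 overlapped, at 345 to 403 CPM under drought and 336 to 399 CPM in controls. Summed, the members took 0.594%, 0.609% and 0.596% of counts under drought and 0.613%, 0.637% and 0.613% in controls, the drought libraries all below the control ones. This sum leans on abundant members: the 3 largest in each library held 22.5% to 24.3% of it. It does not describe the typical member, whose median log2 fold change was 0.12.

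By rank, the leading members were called in bulk about as often as any gene. Among ranks 1 to 50, 13 were called higher (26.0%) and 12 lower (24.0%), with a median of -0.18, against the background of 27.1% each way. Among ranks 51 to 100, 25 were higher (50.0%) and 10 lower (20%), with a median of 0.27. The 33 members chosen in all 4 rounds without a library held 9 higher and 9 lower (27.3% each), at the background, with a median of -0.27. The difference between these groups was not tested, since members are not independent samples.

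In whole nuclei libraries, where UMIs were summed over all deposited barcodes, fewer members passed. By edgeR's quasi-likelihood test over 20768 genes, 10 of the 100 were higher and 9 lower under drought at FDR 0.05, against 3.63% and 5.21% of all genes tested. The median log2 fold change was 0.13 for the members and 0.01 for all genes. Members took 0.706% and 0.721% of UMIs under drought and 0.639% and 0.681% in controls, so the drought libraries both lay above the controls. Without nuclei drought 2, the library with the smallest share of barcodes kept, 5 were higher and 3 lower (1.58% and 2.27% of all genes then tested), and 5 of the 19 called members were called whichever library was left out. These libraries are the ones that chose the members, although the choice did not compare drought with control.

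PtXaAlbH.17G073000 and PtXaAlbH.09G117900 rose most in nuclei. PtXaAlbH.17G073000 had 44.0 and 78.2 CPM under drought and 8.7 and 12.1 CPM in controls, a log2 fold change of 2.53 (SE 0.33, edgeR adjusted p = 0.00402). PtXaAlbH.09G117900 had 166 and 129 CPM under drought and 42.8 and 36.3 CPM in controls, which is 1.86 on the log2 scale (SE 0.21, adjusted p = 0.00203). Both stood clear of the controls in each library. In bulk PtXaAlbH.09G117900 rose too, at 52.2, 49.9 and 46.8 CPM under drought and 28.0, 22.2 and 26.3 CPM in controls (1.08, SE 0.11, adjusted p = 0.000618), whereas PtXaAlbH.17G073000 overlapped there, at 27.4, 10.2 and 27.0 CPM under drought and 12.6, 13.7 and 17.5 CPM in controls.

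PtXaAlbH.14G116300 and PtXaAlbH.11G096900 fell most in nuclei. PtXaAlbH.14G116300 had 1 and 4 UMIs under drought and 63 and 44 in controls (log2 fold change -3.38, SE 0.60, edgeR adjusted p = 0.0117), a change whose size rests on very few drought molecules. PtXaAlbH.11G096900 had 10 and 8 UMIs under drought and 89 and 174 in controls (-2.91, SE 0.49, adjusted p = 0.00942). Both fell in bulk as well: PtXaAlbH.14G116300 had 3.15, 3.15 and 3.87 CPM under drought and 9.02, 10.3 and 10.96 CPM in controls (-1.45, SE 0.16, adjusted p = 0.000719). PtXaAlbH.11G096900 had 7.81, 8.05 and 10.1 CPM under drought and 22.2, 25.2 and 21.2 CPM in controls (-1.28, SE 0.14, adjusted p = 0.00072).

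The anchor showed no such fall in nuclei, with 59.6 and 43.6 CPM under drought and 47.4 and 42.9 CPM in controls. Its log2 fold change was 0.16 (SE 0.23, edgeR adjusted p = 0.730), and -0.08 without nuclei drought 1. Its neighbour PtXaAlbH.03G006100 fell in both assays, with 20.7 and 18.5 CPM under drought and 43.0 and 40.2 CPM in control nuclei (-1.12, SE 0.25, adjusted p = 0.0240), although the nuclei call was lost without drought 2 (0.0848) or control 1 (0.0508) and with DESeq2 (0.0536) or after equalising the UMI totals by thinning (0.0594). None of the other 9 leading members passed in nuclei.

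Called in both assays were 12 members, 48 were called in bulk alone, 7 in nuclei alone and 33 in neither. Of all genes tested in each assay, 54.2% were called in bulk and 8.84% in nuclei. The many calls in bulk alone are thus not read as particular to the members. Shares of all genes called in bulk alone, in nuclei alone or in neither were not computed. Of the 12, 3 were higher and 8 lower in both, against 6.42% of the genes tested in both that were called in the same direction. That share was not matched for level. Beside those already given, PtXaAlbH.16G093300 and PtXaAlbH.15G096100 rose in both, and PtXaAlbH.17G024800, PtXaAlbH.04G037600 and PtXaAlbH.19G053500 fell in both. PtXaAlbH.13G124800 had 38.3 and 50.6 CPM in drought nuclei and 100 and 219 CPM in control nuclei (-1.87, edgeR adjusted p = 0.0129, but 0.0594 without drought 1). PtXaAlbH.15G069600 had 114 and 98.8 CPM in drought nuclei and 180 and 206 CPM in control nuclei (-0.89, adjusted p = 0.0191, but 0.0917 without drought 2 and 0.0505 without control 2). The sign of the drought effect was the same in both assays for 58 of the 100 members, and for 66.2% of all genes tested in both. Across genes, which are not independent, Spearman's rho between the fold changes of the assays was 0.24 for the members and 0.46 for all genes.

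**Figure D5:**
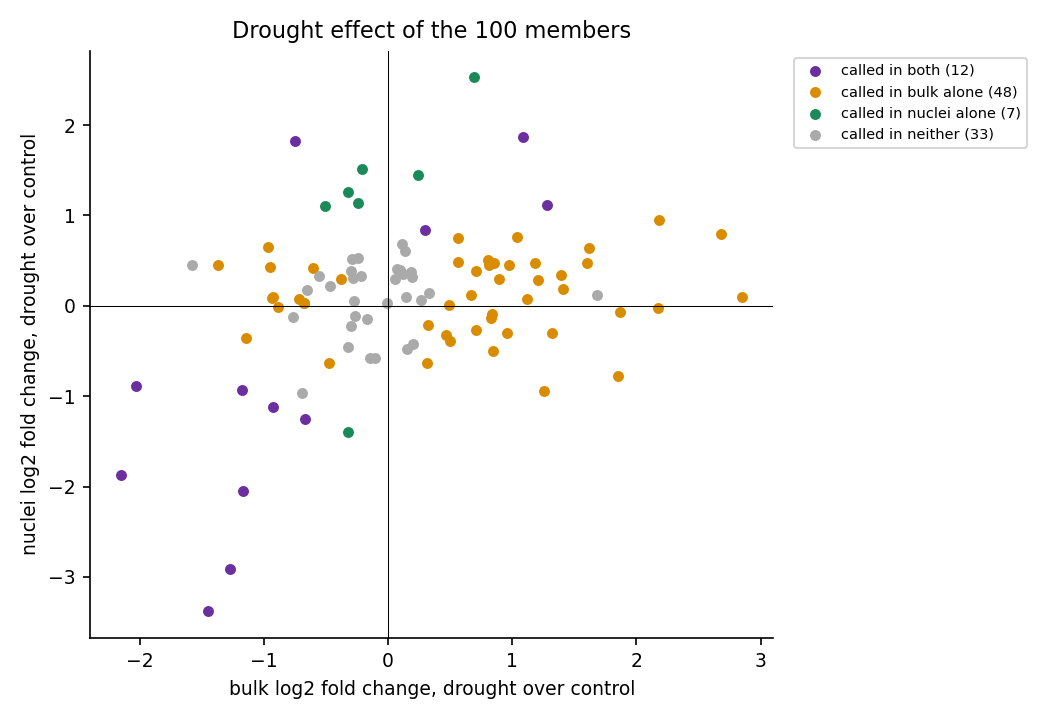
Each point is 1 of the 100 members, with its log2 fold change of drought over control in bulk RNA on the x axis and in whole nuclei libraries on the y axis, coloured by whether it was called at FDR 0.05 in both assays, 1 or neither. The 8 members that fell in both lie at the lower left, and the 48 called in bulk alone spread along the x axis with nuclei values between -1 and 1.

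Whether the drought effect differed between the assays was tested as its own contrast, nuclei minus bulk, in 1 edgeR model of all 10 libraries. It was called for 18 members, 5 with a higher effect in nuclei and 13 with a lower one, against 2.34% and 4.87% of the 27746 genes tested (7.21% in all). This background too was not matched for level. PtXaAlbH.14G019000 differed most: its nuclei had 44.0 and 54.1 CPM under drought and 57.3 and 32.2 CPM in controls, which overlap, so that the large rise in bulk had no counterpart there (difference -2.85, SE 0.44, edgeR adjusted p = 0.00838). PtXaAlbH.08G035000 had 22.4, 11.4 and 24.4 CPM under drought and 4.37, 6.89 and 6.36 CPM in control bulk RNA, but 16.6 and 26.1 CPM under drought and 37.5 and 34.1 CPM in control nuclei (difference -2.72, SE 0.50, adjusted p = 0.0161). Its drought libraries lay above the controls in bulk and below them in nuclei, where the difference between treatments did not pass the test (adjusted p = 0.125).

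PtXaAlbH.04G134200 was the only member called in opposite directions, which befell 0.369% of the genes tested in both. It had 25.6, 51.4 and 26.1 CPM under drought and 60.9, 65.8 and 61.9 CPM in control bulk RNA (-0.75, SE 0.26, edgeR adjusted p = 0.0482). In nuclei it had 160 and 77.7 CPM under drought and 21.2 and 44.6 CPM in controls (1.83, SE 0.38, adjusted p = 0.0198), and the difference was 2.49 (SE 0.56, adjusted p = 0.0290). The groups did not overlap in either assay. The bulk call was lost when any library but drought 2 was left out (adjusted p 0.0946 to 0.137), and the nuclei call without drought 1 (0.0923). For the anchor, the difference of 0.74 (SE 0.31) did not pass (adjusted p = 0.165).

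Counts of the difference test depended on single libraries. Without bulk drought 2 they were 21 higher and 27 lower, and without any other library 1 to 5 higher and 5 to 9 lower. With library size as the only scaling they were 12 higher and 9 lower. All genes moved likewise, with 10.4% higher and 12.4% lower without bulk drought 2, and 5.31% higher and 2.95% lower with library size only, so these shifts are not particular to the members. Bulk and nuclei libraries came from different extractions, the labels do not tie them to the same plants, and the drought nuclei libraries held fewer UMIs than the controls, so assay and tissue piece cannot be told apart here. Within nuclei, thinning each library down to 1 common UMI total left 10 members higher and 8 lower under drought (3.16% and 4.75% of genes then tested).

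Within the anchor-positive nuclei themselves, drought against control could be tested for 83 members, whose counts passed the low-count filter. None was called by edgeR's quasi-likelihood test at FDR 0.05, whereas 13 had an unadjusted p under 0.05, a share not computed for all genes. Members were chosen on these same nuclei, by the lower of their drought and control ratios. That choice works against genes high beside the anchor in 1 treatment alone. The lack of calls therefore cannot show that members are unchanged by drought. No other tool was run on these sums. Of all 1811 genes tested there, 8 were called (0.442%). PtXaAlbH.13G124800, which fell in bulk and in whole nuclei libraries, came closest (log2 fold change -2.54, adjusted p = 0.0629). PtXaAlbH.05G045400 had -1.47 (adjusted p = 0.186), with the 729 and 1073 CPM under drought and 3228 and 1341 CPM in controls given above, in which control 1 alone stands far out. With 67 and 50 drought nuclei and 137 and 115 control nuclei, moderate changes were not detectable at this depth. Leaving out drought 2 gave 4 members lower (0.761% of genes then tested), leaving out control 1 gave 2 (1.99%) and leaving out control 2 gave 2 (0.460%).

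Members of the list nearest to this one, that of PtXaAlbH.07G032900, gave other counts. In bulk 46 of 100 were higher and 10 lower under drought, against 27.1% each way of all genes tested. In whole nuclei libraries 0 were higher and 11 lower, against 3.63% and 5.21% of all genes tested. The median log2 fold change in nuclei was -0.60 for that list and 0.13 for the genes found with PtXaAlbH.03G005800. The lists were chosen on the same nuclei, and the difference between them was not tested.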

How the data were processed

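The authors deposited raw read counts per gene for 6 bulk libraries and raw UMI counts per feature and barcode for 4 nuclei libraries, per the file headers and the values. The submitters' processing notes name HISAT2. The counting tool, genome build, strand setting and barcode selection are not stated in the sources used here. Of 31848 nuclei features, 25 with ribosomal or transfer RNA names were left out (0.0574% to 0.478% of UMIs). The members and lists were chosen with earlier results of these data known. Members followed the rule in the opening. Genes named are the anchor, the 10 leading members, those at the limit, and the most changed and most abundant members; others were named after their values were seen.

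Counts were tested with edgeR 4.0.16 (TMM, filterByExpr, quasi-likelihood F test, Benjamini-Hochberg FDR 0.05) in R 4.3.3, on all genes, with libraries as replicates; SE is the log2 fold change over the square root of F. CPM is relative to library totals. DESeq2 1.42.0 was an alternative. Counts were also simulated with the same fixed spread for every gene, which was not estimated from these libraries. On them the tests recovered 96.0% (bulk), 58.0% (nuclei) and 6.10% (anchor-positive nuclei) of 2-fold changes. These shares need not hold at the spread of the real replicates. Thinning drew 250 UMIs per nucleus with a fixed seed, under Python 3.11.15. Replicates differed beyond sampling noise (chi-square per degree of freedom 4.56 to 163). Nuclei libraries come from 1 plant each. Files hold no sequences, so none is shown.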

Additional observations from a re-analysis of the deposited data

Results flagged for a closer look

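The drought effect, as log2 fold change, differed between nuclei and bulk RNA by its own test (edgeR contrast, nuclei minus bulk, FDR 0.05) for 18 members, of which 6 are among the genes named above. PtXaAlbH.14G019000 differed by -2.85, PtXaAlbH.08G035000 by -2.72, PtXaAlbH.14G116300 by -2.06, PtXaAlbH.01G070900 by -1.98 and PtXaAlbH.13G121100 by -0.99. PtXaAlbH.04G134200 differed by 2.49. PtXaAlbH.14G116300 fell in both assays and rests on 1 and 4 drought UMIs in nuclei, whereas PtXaAlbH.14G019000, PtXaAlbH.01G070900 and PtXaAlbH.13G121100 passed the test in bulk alone. For PtXaAlbH.13G121100 nuclei had 172 and 253 CPM under drought and 262 and 286 CPM in controls, below the controls in each library, against a rise in bulk. The share of all genes called in this contrast was 7.21%, a background not matched to the members for level. The drought nuclei libraries were shallower. With all nuclei libraries thinned to the total of the shallowest, the nuclei change was 1.77 for PtXaAlbH.04G134200 (edgeR adjusted p = 0.0192) and -3.29 for PtXaAlbH.14G116300 (0.0154), about as at full depth. The contrast itself was not run on thinned libraries.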

How the results depend on the processing

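Leaving out 1 library at a time gave 28 to 44 members higher and 17 to 37 lower in bulk (37 without bulk drought 2). Of all genes then tested, 19.1% to 32.8% were higher and 19.9% to 33.6% lower. Whole nuclei libraries gave 5 to 13 higher and 3 to 10 lower (1.58% to 4.51% and 2.27% to 6.29% of all genes). Anchor-positive nuclei gave 0 to 4 lower (0% to 1.99%). Nuclei minus bulk gave 1 to 21 higher and 5 to 27 lower (0.558% to 10.4% and 1.70% to 12.4%). Leaving out a library kept 49 to 76 members. Of 60 bulk calls 44 held without each library, and 5 of 19 nuclei calls did. With a replicate block, nuclei minus bulk gave 1 higher and 4 lower (0.425% and 1.13% of all genes tested). The anchor's bulk change lost its call (edgeR adjusted p = 0.0691). The block changed no other count by over 1.5 times. The labels do not say whether replicate numbers pair the samples. Deviations from the group mean in same-numbered libraries correlated at -0.00 to 0.03 in bulk and -0.10 in nuclei. With 2 nuclei libraries per treatment the deviations mirror each other, so the nuclei value is 1 number. Such correlations cannot exclude a shared batch. A crossed replicate block in nuclei, added after seeing the data, gave 13 higher and 12 lower (5.89% and 7.55% of all genes tested). Thinning nuclei libraries to the shallowest total gave 10 higher and 8 lower (3.16% and 4.75%). Library size as the only scaling gave 12 higher for nuclei minus bulk (5.31%). Requiring 2 anchor UMIs gave 1 member lower in anchor-positive nuclei (2.21% of genes then tested) and kept 22 members, and 60 UMIs kept 42. Thinning to 250 UMIs left 10 genes past the minimum, of which 6 were members, and with 10 UMIs as the minimum, added after seeing the data, 43 members were kept. Drought minus control was -0.17 percentage points for the anchor share when thinned. For member-rich nuclei it was -0.95 at 8 UMIs, -0.68 at 6 and -0.37 at 10. The anchor's nuclei log2 fold change ran between -0.082 (without nuclei drought 1, a reversed sign) and 0.36 when a library was left out. Of 269 values of named genes under alternatives, 244 kept direction and call and 24 lost their call. The causes were not tested. Nuclei have 2 libraries per treatment, and a member's drought UMIs in anchor-positive nuclei were few.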

Other observations

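Some members with adjacent or nearly adjacent IDs, picked here after their values were seen, did not move alike in bulk. PtXaAlbH.15G024400 had 8.16, 11.05 and 8.66 CPM under drought and 18.7, 15.2 and 16.1 CPM in controls (log2 fold change -0.72, edgeR adjusted p = 0.00671). PtXaAlbH.15G024600, 2 steps further in the list of IDs, had 32.6, 27.7 and 31.4 CPM under drought and 16.8, 16.5 and 17.7 CPM in controls (0.97, adjusted p = 0.000682). The libraries of the treatments did not overlap for either gene, and the directions were opposite. PtXaAlbH.07G007900 and the next ID, PtXaAlbH.07G008000, were both lower under drought (-0.67 and -0.48). PtXaAlbH.13G121000 had 14.4 to 22.5 CPM under drought and 17.9 to 23.7 CPM in controls, overlapping, while its neighbour PtXaAlbH.13G121100 rose.

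Of the other anchors, PtXaAlbH.07G032900 was seen in 62 of the 612 member-rich nuclei, mostly in controls. Its share of them was 4.55% and 0% in drought libraries 1 and 2, against 3.23% and 1.74% of the other nuclei, and 11.4% and 16.0% in control libraries 1 and 2, against 4.16% and 5.75%. The share was thus well above the other nuclei in both controls, while drought 1 had 5 such nuclei and drought 2 had 0 of 90, a count of 0 that allows up to 3. The other 5 were seen in at most 5.45% of the member-rich nuclei of a library. The other anchors were scored at full depth here, not after thinning. Member lists were built on the same nuclei, so these shares are descriptions.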
